A study of Homo sapiens with 4 samples.

Results

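The small nucleolar RNA (snoRNA) and small Cajal body RNA (scaRNA) genes were followed in ovarian cancer stem cells treated with LY500307. Members were all genes whose symbol begins with SNORA, SNORD or SCARNA and whose reads summed to 40 or more over the 4 samples, a choice made on the total and not on the difference between groups. Of 388 such symbols among the 23228 gene symbols counted, 111 reached this total. They comprised 75 of 258 SNORD genes (box C/D), 31 of 106 SNORA genes (box H/ACA) and 5 of 24 SCARNA genes (scaRNA). Another 142 symbols had between 1 and 39 reads in all, and 135 had none.

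SnoRNAs are short nuclear RNAs that guide the modification of other RNAs by base pairing. Box C/D snoRNAs carry the C and D boxes near their ends, assemble with fibrillarin, NOP56, NOP58 and SNU13, and direct the methylation of ribose in ribosomal RNA (rRNA). Box H/ACA snoRNAs fold into hairpins followed by the H and ACA boxes, assemble with dyskerin, NHP2, NOP10 and GAR1, and direct the conversion of uridine to pseudouridine. ScaRNAs are close relatives that reside in Cajal bodies and guide the same modifications on spliceosomal RNAs. In human cells nearly all of them are cut out of the introns of longer host genes, many of which encode ribosomal proteins or are noncoding genes such as GAS5 and the SNHG genes. Their level therefore depends both on transcription of the host and on the stability of the processed RNA.

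The sequences of 3 members are shown for the features that separate both classes, with the C box and the D box in capitals, and SNORA40 holds neither. They were read 5′ to 3′ from GRCh37, the assembly of hg19. SNORD116-24 (chr15:25339184-25339275, plus strand) is a box C/D member that met the calling criteria given below, and SNORA40 (chr11:93468277-93468402, minus strand) is such a box H/ACA member. SNORD5 (chr11:93466394-93466466, minus strand), a box C/D member, lies in the same host gene as SNORA40, TAF1D, and did not meet them.
SNORD116-24: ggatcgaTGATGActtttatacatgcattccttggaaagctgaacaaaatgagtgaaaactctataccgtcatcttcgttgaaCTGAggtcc
SNORD5: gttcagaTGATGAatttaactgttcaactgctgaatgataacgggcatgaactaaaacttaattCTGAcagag
SNORA40: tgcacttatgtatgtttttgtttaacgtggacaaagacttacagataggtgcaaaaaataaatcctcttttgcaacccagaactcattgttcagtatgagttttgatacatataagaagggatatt

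A place in GRCh37 that matched the host gene was found for 71 members. The D box CTGA was found within the last 20 bases of 44 of 45 placed box C/D members (97.8%) and of 3 of 23 box H/ACA members (13%). The exact C box letters TGATGA occurred within the first 20 bases of 27 of the 45 (60%) and of 0 of the 23. An ACA within the last 8 bases was present in 17 of 23 box H/ACA members (73.9%) and 3 of 45 box C/D members (6.67%), and SNORA40 was among those without one in its annotated end. The H box pattern ANANNA, searched between 30% and 65% of the length, was found in 23 of 23 box H/ACA members and, being a loose pattern, in 16 of 45 box C/D members (35.6%). Box C/D members were 64 to 237 nt long with a median of 78 nt, and box H/ACA members were 121 to 178 nt long with a median of 134 nt. The class given by each symbol was thus mirrored in the sequences. Of the placed members, 56 overlapped an exon of some annotated transcript of the host and 15 lay wholly within introns.

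SKOV3 is an established ovarian cancer cell line, and its ALDH+ cells, sorted by the ALDEFLUOR assay for aldehyde dehydrogenase activity and cultured as spheroids, were used as OCSCs. They received vehicle (2 samples) or 5 µM LY500307, an agonist of estrogen receptor β (ERβ), for 24 h (2 samples). A single cell line was profiled, no other alteration is named for either group, and whether the replicates were separate cultures is not given, so that p-values measure only the spread between these samples. The comparison asks which transcripts the agonist altered in OCSCs.

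Between 28841701 and 34943882 reads per sample were counted on genes, of which the 111 members took 0.0101% to 0.0137%. EPCAM (194 to 240 CPM), KRT18 and ERBB2 were present as epithelial markers, KRT8 was at most 1.02 CPM and PAX8 had 0 reads, which allows up to 3 reads in a sample. The leukocyte and endothelial markers PTPRC and PECAM1 had at most 4 reads. Of the fibroblast markers, COL1A1 had 182 and 190 CPM with vehicle and 222 and 230 CPM with LY500307, and DCN had 9.11 and 9.61 CPM against 7.58 and 8.76 CPM. The groups overlapped for neither, in opposite directions, and the part of these genes in the snoRNA values was not tested. Of the epithelial markers, KRT18 (26.3 and 23.5 against 29.7 and 31.8 CPM) and ERBB2 (48.8 and 51.1 against 59.4 and 56.4 CPM) did not overlap either. Both were higher with LY500307, whereas EPCAM and KRT8 overlapped. Such non-overlap was found for 48.6% of all genes. Among the ALDH1A genes, ALDH1A2 was highest, with 11.35 and 11.08 CPM with vehicle and 9.999 and 10.09 CPM with LY500307. ALDH1A1 had 5.27 and 4.71 CPM with vehicle and 5.33 and 5.41 CPM with LY500307. The groups overlapped for neither, ALDH1A2 being lower and ALDH1A1 higher with LY500307. ALDH1A3 had at most 0.501 CPM, with overlapping groups. ESR2, the gene of ERβ, had 7 to 12 reads. The LY500307 replicates differed from each other more than the vehicle replicates did, with a chi-square per degree of freedom of 42.5 against 5.16 over all genes and of 4.5 against 3.15 over the members.

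The members took few reads. The labels name a total RNA kit and the methods a stranded mRNA kit, and how well either captures such short RNAs was not tested. The values below are therefore read levels in these libraries and do not give the abundance of the mature RNAs in the cells. Levels are given in CPM, a read count divided by the library size as scaled by edgeR's TMM method, and the mean CPM of a member over the 4 samples ranged from 0.318 to 6.79 with a median of 0.685. The median total was 85 reads, against 3547 reads over all 14382 genes tested. SNORD47, a GAS5 snoRNA, was the most highly counted, with 257 and 174 reads under vehicle and 187 and 229 reads under LY500307. SNORD76 and SNORD79, both from GAS5 as well, followed among box C/D members with mean CPM values of 4.59 and 4.54. Among box H/ACA members SNORA40 (3.39 CPM), SNORA18 (2.56 CPM) and SNORA4 (1.91 CPM) were highest, and among scaRNAs SCARNA12 (2.64 CPM), SCARNA9 (1.20 CPM) and SCARNA16 (0.580 CPM). These values depend on length. A length was known for 71 members, and SNORD47, SNORD76 and SNORD79 were not among them. Within these 71, SNORD5 was highest at 37.7 CPM per kb, SNORA40 reached 26.9 CPM per kb and SCARNA12 reached 9.78 CPM per kb. The medians of the same 71 were 7.09 for box C/D and 4.90 for box H/ACA members.

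The 2 vehicle samples differed by a median of 0.43 on the log2 scale over the members and the 2 LY500307 samples by 0.49, whereas the corresponding medians over all genes tested were 0.10 and 0.21. Accordingly, the median standard error (SE) of a member's log2 fold change was 0.54, against 0.15 for all genes. A log2 fold change here compares LY500307 with vehicle, and negative values mean lower with LY500307.

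With edgeR's quasi-likelihood test and the criteria of the study (p below 0.05 before adjustment, log2 fold change beyond 0.5 in either direction), 12 of the 111 members (10.8%) were called, against 656 of 14382 genes tested (4.56%). Of the 12 members, 11 were lower with LY500307 (background 1.84%) and 1 was higher (background 2.73%). Box C/D members made up 10 of the calls (10 of 75, 13.3%), box H/ACA members 2 (2 of 31, 6.45%), and 0 of 5 scaRNAs were called. On the unadjusted p alone the members' share did not exceed the background, since a p below 0.05 was found for the same 12 members (10.8%) and for 1664 of all genes (11.6%). All 12 of these members, but 656 of these 1664 genes, also passed the fold threshold. After Benjamini-Hochberg adjustment over all genes, edgeR called 0 members and 0 genes at an adjusted p below 0.05, the smallest adjusted p being 0.423. DESeq2 called 5 of the 111 members by the same criteria (background 4.02%), namely SNORA40, SNORD116-22, SNORD29, SNORD50B and SNORD57. It gave an adjusted p to 11315 of the 14382 genes, and most members, SNORD57 among them, received none. That 0 members had a DESeq2 adjusted p below 0.05 is therefore no negative result for most of them. For 1 gene in 2 samples against 2, the smallest two-sided p that exact permutation allows is 0.333.

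**Figure D1:**
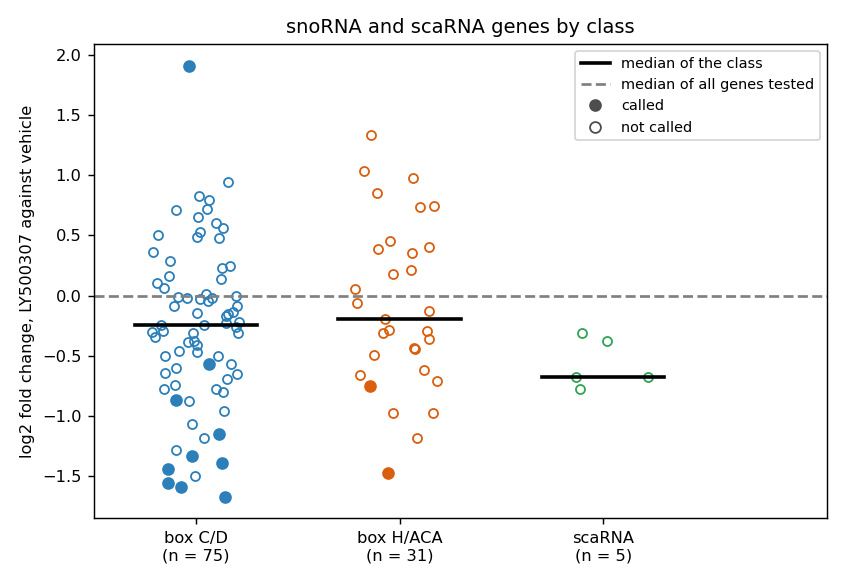
Log2 fold change (LY500307 against vehicle) of each of the 111 members by class. Each circle is 1 gene, filled where it was called, the black bars are class medians and the dashed line is the median of all genes tested; the medians are -0.25 for box C/D, -0.20 for box H/ACA and -0.68 for scaRNA genes.

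Most members lay below vehicle. The log2 fold change was negative for 76 of 111 members, 53 of 75 box C/D, 18 of 31 box H/ACA and 5 of 5 scaRNA genes, whereas over all genes tested 7208 were negative and 7174 positive. Its median was -0.29 over the members, -0.25 for box C/D, -0.20 for box H/ACA and -0.68 for the 5 scaRNAs, against -0.00 over all genes. The range over the members was -1.68 to 1.92. Both LY500307 samples lay below both vehicle samples for 38 members (34.2%, background 24.4%) and above both for 11 (9.91%, background 24.3%). Taken in either direction, the groups did not overlap for 44.1% of members and 48.6% of all genes.

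The shift was not shared evenly by the treated samples. Relative to the vehicle mean, LY500307 replicate 1 was lower for 89 of 111 members (80.2%) and LY500307 replicate 2 for 62 (55.9%), against 50.3% and 50.6% of all genes. Leaving out LY500307 replicate 1 moved the median log2 fold change of the members to -0.07 with 60 negative, and leaving out replicate 2 moved it to -0.45 with 89 negative. Both treated samples lay below the vehicle mean for 55 members (49.5%, 34.7% of all genes), both above for 15 (13.5%, 33.8% of all genes), and 41 members (36.9%, 31.5% of all genes) had 1 on each side. Box H/ACA members split most, with 24 of 31 below the vehicle mean in replicate 1 and 12 of 31 in replicate 2. Without LY500307 replicate 1 their median became 0.20 and without vehicle replicate 1 it became 0.14, so that its direction was not fixed.

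**Figure D2:**
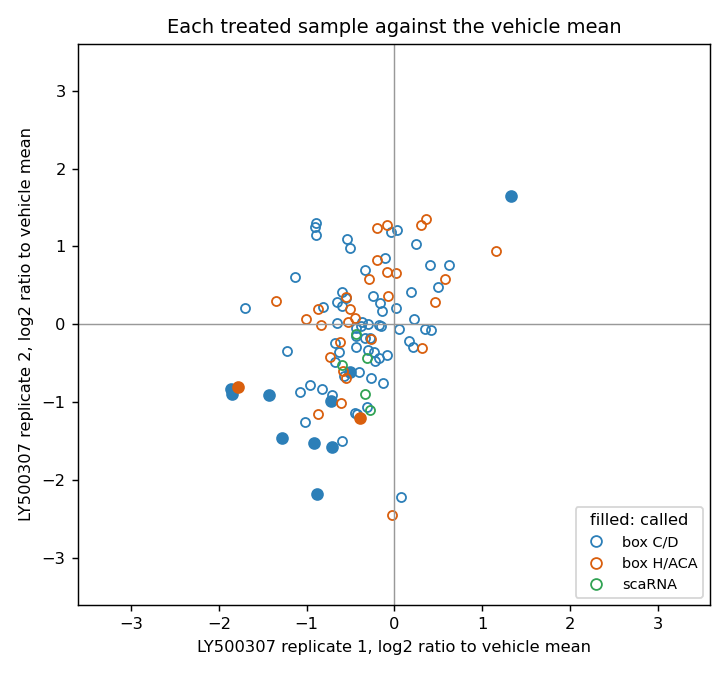
Log2 ratio to the vehicle mean of each member in LY500307 replicate 1 (x axis) and LY500307 replicate 2 (y axis), computed on CPM plus 0.1. Circles are genes coloured by class and filled where called; 55 lie below 0 on both axes and 15 above 0 on both.

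Summed over the class, box C/D genes had 102.7 and 98.7 CPM in the vehicle samples and 73.9 and 87.1 CPM in the LY500307 samples, a mean of 100.7 ± 2.86 against 80.5 ± 9.29 (SD, n = 2). Both treated sums lay below both vehicle sums, and the log2 ratio of the means was -0.32. Box H/ACA genes summed to 30.3 and 27.4 CPM with vehicle and to 22.8 and 31.6 CPM with LY500307. These groups overlapped, LY500307 replicate 2 being the highest of the 4 samples and replicate 1 the lowest, and the log2 ratio was -0.09. The 5 scaRNAs summed to 6.24 and 5.81 CPM against 4.58 and 4.24 CPM, without overlap and with a log2 ratio of -0.45. The ratio of summed box H/ACA to summed box C/D CPM was 0.295 and 0.277 with vehicle and 0.308 and 0.363 with LY500307. No test was made on these sums, whose members were chosen with earlier results known. In bulk RNA, fewer cells that express a gene and less RNA per cell cannot be told apart.

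**Figure D3:**
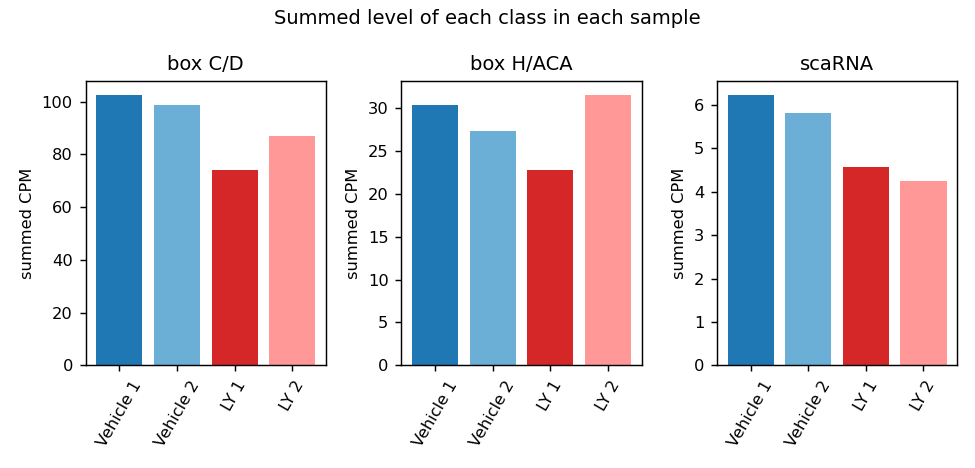
Summed CPM of the 75 box C/D, 31 box H/ACA and 5 scaRNA genes in each of the 4 samples, with 1 bar per sample and an axis from 0 in each panel. Box C/D and scaRNA bars are lower in both LY500307 samples, and the box H/ACA bars overlap between groups.

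Among the called box C/D genes, SNORD57, SNORD56, SNORD59B, SNORD44 and SNORD19 are known as guides of methylation on the small subunit rRNA. SNORD57 had 89 and 75 reads with vehicle and 38 and 31 with LY500307. The treated samples were both below the vehicle samples, by more than the replicates of either group differed, and the log2 fold change was -1.44 ± 0.31 (SE; adjusted p = 0.423, edgeR's quasi-likelihood test). In CPM these were 2.80 ± 0.234 with vehicle and 1.03 ± 0.0961 with LY500307 (SD, n = 2). SNORD56, which shares the host gene NOP56 with SNORD57, had 33 and 20 reads with vehicle and 15 and 8 with LY500307 (log2 fold change -1.39 ± 0.54). Its groups did not overlap, although the counts were a fraction of those of SNORD57.

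SNORD44, a GAS5 snoRNA, had 150 and 151 reads with vehicle and 125 and 108 with LY500307. It was the most highly expressed called gene, with replicates that nearly coincided, and its log2 fold change of -0.57 ± 0.22 (adjusted p = 0.425) lay close to the threshold of 0.5. SNORD59B had 30 and 22 reads with vehicle and 6 and 14 with LY500307 (log2 fold change -1.56 ± 0.56). SNORD19 had 40 and 20 reads with vehicle and 11 and 16 with LY500307 (log2 fold change -1.34 ± 0.54). In SNORD19 the vehicle samples differed from each other by more than the nearest vehicle and LY500307 samples did.

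SNORD29, SNORD50B and SNORD15B are guides of methylation on the large subunit rRNA. SNORD29 had 139 and 156 reads with vehicle and 105 and 81 with LY500307, without overlap. This was 5.06 ± 0.602 CPM with vehicle and 2.77 ± 0.368 CPM with LY500307 (SD, n = 2). Its log2 fold change was -0.87 ± 0.24 (adjusted p = 0.423, edgeR's quasi-likelihood test). SNORD50B had 72 and 48 reads with vehicle and 42 and 20 with LY500307 (log2 fold change -1.15 ± 0.41). SNORD15B had 26 and 14 reads with vehicle and 4 and 11 with LY500307 (log2 fold change -1.59 ± 0.67). Its fold is large but rests on 55 reads in all.

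SNORD116 genes form an imprinted cluster within SNHG14 on chromosome 15, for whose RNAs no rRNA target is established. They are near copies of each other, so that reads may be misassigned or lost among them. Of the 43 stretches of 50 bases in SNORD116-24, 0 have an exact copy elsewhere in the genome. For the other SNORD116 members, SNORD116-22 among them, no place in GRCh37 that matched the host gene was found. Exact copies of these were not searched. SNORD116-24 had 19 and 26 reads with vehicle and 13 and 3 with LY500307 (log2 fold change -1.68 ± 0.65), the lowest value of the members. SNORD116-22 had 8 and 2 reads with vehicle and 20 and 24 with LY500307 (log2 fold change 1.92 ± 0.68), the highest value of the members and the single call in that direction. The cluster thus held both extremes. The other 3 SNORD116 members were not called and had log2 fold changes of -0.47 for SNORD116-21, -0.39 for SNORD116-28 and -0.03 for SNORD116-4.

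The called box H/ACA genes were SNORA40 and SNORA44. SNORA40 had 122 and 127 reads with vehicle and 112 and 58 with LY500307 (log2 fold change -0.75 ± 0.31, adjusted p = 0.43). In CPM, LY500307 replicate 1 lay below the vehicle samples by less (3.23 against 4.07 and 4.47) than replicate 2 did (1.79), and without replicate 2 SNORA40 was not called (log2 fold change -0.40). Of the 77 stretches of 50 bases in SNORA40, 10 have an exact copy elsewhere in the genome. Reads that did not align uniquely were left out, so reads of these stretches may be missing from its counts. SNORA44 had 30 and 19 reads with vehicle and 6 and 14 with LY500307 (log2 fold change -1.48 ± 0.59). SNORA52 had the largest positive value of the box H/ACA genes, with 5 and 9 reads with vehicle and 23 and 18 with LY500307 (log2 fold change 1.34 ± 0.60), and was not called (adjusted p = 0.433, edgeR's quasi-likelihood test). SNORA52 was chosen here after its values were seen.

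**Figure D4:**
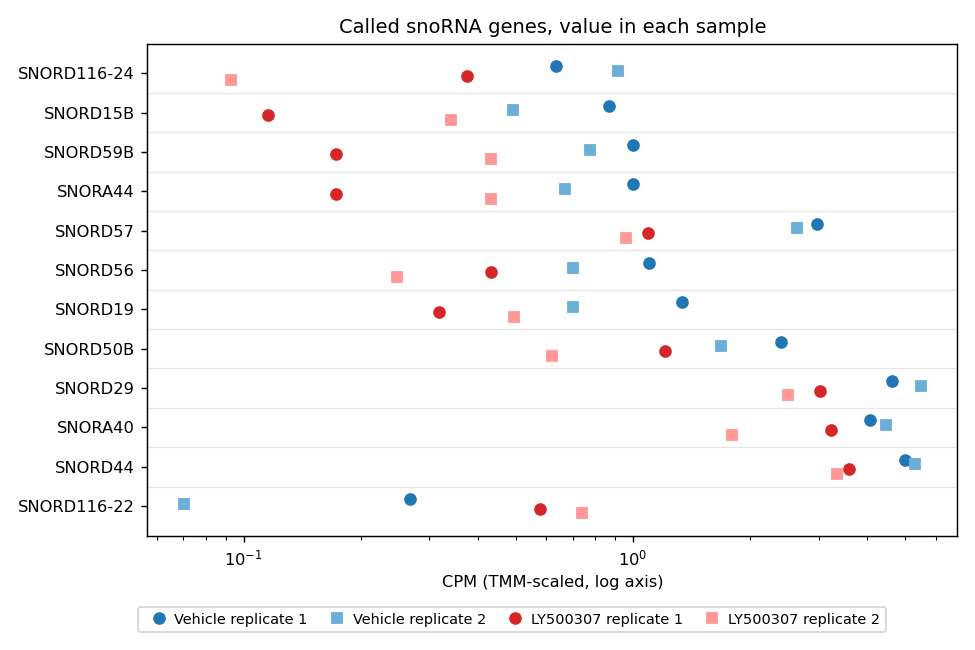
CPM (TMM-scaled, log axis) of the 12 called members in each sample, ordered from the lowest log2 fold change (SNORD116-24) to the highest (SNORD116-22). Blue symbols are vehicle and red symbols LY500307, circles replicate 1 and squares replicate 2; the red symbols lie left of the blue ones in 11 genes and right of them in SNORD116-22.

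The calls were fitted again without each of the 4 samples in turn. Each such fit left 1 sample in a group, so a lost call need not mean that it rested on 1 library. SNORD44, for instance, lost its call without vehicle replicate 1 although its log2 fold change went from -0.57 to -0.61. SNORD57 and SNORD29 were called without any one of the 4 samples, with log2 fold changes of -1.54 to -1.36 for SNORD57 and of -0.74 or lower for SNORD29. The other 10 were called in 1 or 2 of those 4 fits. Without LY500307 replicate 1, the calls of SNORA44 (-0.94), SNORD15B (-0.99), SNORD19 (-1.04) and SNORD59B (-1.03) were lost, the log2 fold change then being the value in parentheses. Without LY500307 replicate 2, those of SNORA40 (-0.40), SNORD116-22 (1.73), SNORD116-24 (-1.03), SNORD44 (-0.52), SNORD50B (-0.76) and SNORD56 (-1.06) were lost. Leaving out vehicle replicate 1 ended the calls of SNORA44 (-1.15), SNORD15B (-1.12), SNORD19 (-0.80), SNORD44 (-0.61), SNORD50B (-0.87), SNORD56 (-1.03) and SNORD59B (-1.36). Leaving out vehicle replicate 2 ended those of SNORA40 (-0.69), SNORD116-22 (1.29), SNORD116-24 (-1.40) and SNORD44 (-0.53). All kept their direction. Without vehicle replicate 1, 8 members were called (background 4.38%), 6 of them lower (background 1.68%), and without LY500307 replicate 1, 18 members were called (background 14%), 11 of them lower (background 6.32%).

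The 5 scaRNAs all had negative log2 fold changes, and none was called. SCARNA12, in PHB2, had 83 and 91 reads with vehicle and 83 and 71 with LY500307 (log2 fold change -0.38 ± 0.26). SCARNA9 had 53 and 25 reads with vehicle and 33 and 39 with LY500307 (log2 fold change -0.31 ± 0.43), with overlapping groups. SCARNA16 had 25 and 17 reads with vehicle and 19 and 11 with LY500307 (log2 fold change -0.68 ± 0.51). In CPM the groups did not overlap for SCARNA12, SCARNA16 and SCARNA27, all lower with LY500307 (24.4% of all genes).

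Since a snoRNA and its host gene are made from one transcript, each member was set beside its host in the same fit. A host among the tested genes was assigned to 96 members, in 51 distinct host genes, whose log2 fold changes ranged from -0.47 to 2.00 with a median of 0.14, and 36 of the 51 were positive. Of the 96 members, 67 had a lower log2 fold change than the host. The 10 called members with a tested host, all of them lower with LY500307, lay below it in 10 of 10 cases, which the call itself favours. None of their hosts met the criteria and 5 of these hosts had a positive log2 fold change. Across the 96 pairs, which share libraries and in part hosts, member and host log2 fold changes had a Pearson r of 0.16 and a Spearman rho of 0.19, given as a description.

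NOP56 encodes a core protein of box C/D particles and holds 4 members. NOP56 itself had 211 and 207 CPM with vehicle and 201 and 195 CPM with LY500307 (log2 fold change -0.08 ± 0.10). Its members summed to 6.44 and 4.29 CPM with vehicle and to 2.36 and 2.47 CPM with LY500307, a log2 ratio of -1.15. Besides SNORD57 and SNORD56, SNORA51 (log2 fold change -1.19 ± 0.70) and SNORD110 (-0.26 ± 0.54) were negative but not called, and SNORA51 rested on 42 reads in vehicle replicate 1 against 10 to 15 reads in each of the other samples. All 4 log2 fold changes were thus lower than that of NOP56, but for SNORD110 the difference was smaller than its SE.

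SNHG1, a noncoding host gene, holds 8 members, and 7 of these had negative log2 fold changes with a median of -0.57. Their sum was 20.8 and 20.7 CPM with vehicle and 13.6 and 14.6 CPM with LY500307, a log2 ratio of -0.56, whereas SNHG1 had 89.3 and 89.7 CPM with vehicle and 79.5 and 77.4 CPM with LY500307 (log2 fold change -0.19 ± 0.10, not called). The treated samples lay below the vehicle samples for 6 of the 8 (24.4% of all genes). These were SNORD22, SNORD26, SNORD27, SNORD29, SNORD30 and SNORD31, of which SNORD29 alone was called. SNORD28 was the positive one, with 17 and 27 reads with vehicle and 17 and 56 with LY500307. The sum of the SNHG1 snoRNAs differed by less between replicates than between groups.

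GAS5 holds 9 members that went apart. SNORD44 was called lower, SNORD76 and SNORD79 were lower in both treated than in both vehicle samples without being called (log2 fold changes -0.30 ± 0.22 and -0.23 ± 0.22), and SNORD80 was higher in both (0.71 ± 0.37, adjusted p = 0.449, edgeR's quasi-likelihood test, not called). Their sum was 27.1 and 26.5 CPM with vehicle and 21.2 and 27.0 CPM with LY500307, so that the groups overlapped. GAS5 itself had 64.1 and 66.7 CPM with vehicle and 54.4 and 87.7 CPM with LY500307, also overlapping. In both the host and its snoRNAs, LY500307 replicate 1 was the lowest sample.

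TAF1D, a subunit of a factor for transcription of rRNA genes, had the lowest log2 fold change of the hosts, -0.47 ± 0.17, short of the threshold of 0.5. Its 6 members ranged from -0.75 (SNORA40) to 0.85 (SNORA25) with a median of -0.25. Their sum was 13.5 and 12.8 CPM with vehicle and 9.48 and 11.5 CPM with LY500307. EIF4A2, a translation factor gene, went the other way. Its 4 members had a median of 0.28, while EIF4A2 had a log2 fold change of -0.16 ± 0.10. SNORA4, SNORA63 and SNORD2 were higher in both treated than in both vehicle samples (24.3% of all genes) without being called.

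**Figure D5:**
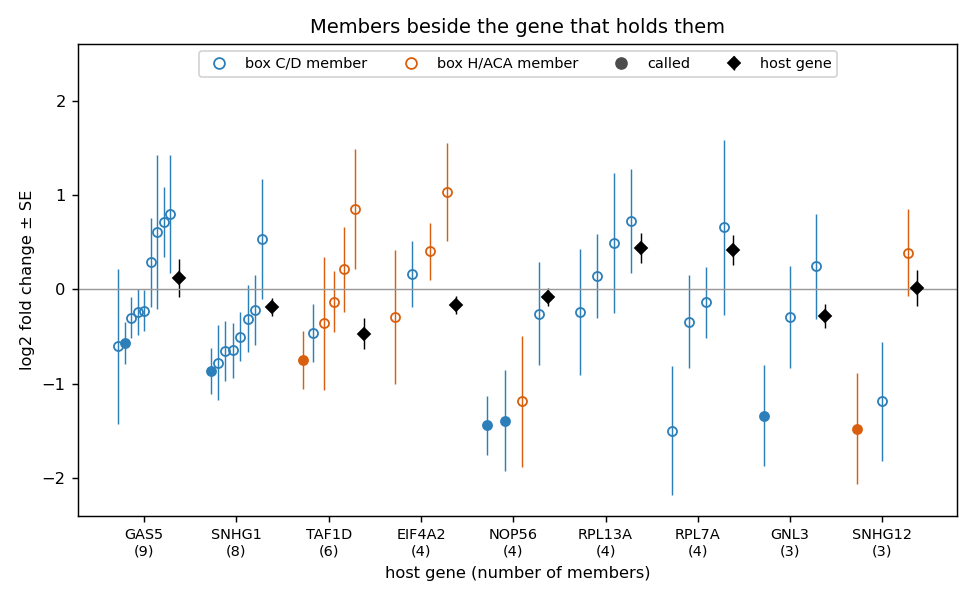
Log2 fold change (± SE) of members grouped by host gene, for the 9 tested hosts with at least 3 members. Circles are members coloured by class and filled where called, and black diamonds are the host genes; all 4 NOP56 and 7 of 8 SNHG1 members lie below 0.

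Ribosomal protein genes, counted by symbol and so with the pseudogene RPL32P3 (log2 fold change -0.24), made up 21 of the 51 hosts. Of these, 17 had positive log2 fold changes (median 0.40). Their 32 members had a median of -0.05 with 18 negative, and 1 of the 32 was called, SNORD15B in RPS3. The 30 other hosts had a median of 0.05, and their 64 members a median of -0.31 with 46 negative and 9 called. Over all genes tested, 4.56% were called, and the difference between both kinds of host was not tested. The 4 hosts that met the criteria were the ribosomal protein genes RPL13, RPL4, RPLP2 and RPSA, all higher with LY500307 (4 of 51, background 2.73% in this direction), and 0 of their 5 members were called. None of the 4 met the criteria without LY500307 replicate 2, when the log2 fold changes were 0.11 for RPL13, 0.15 for RPL4, 0.27 for RPLP2 and -0.17 for RPSA. RPL13 also missed them without either vehicle sample (0.63 both times) and RPL4 without vehicle replicate 2 (0.56). Ribosomal protein genes have many processed copies in the genome, so that their own counts are uncertain, and RPSA had 13.5 and 10.5 CPM with vehicle and 10.7 and 85.3 CPM with LY500307.

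Genes of the particles and of snoRNA maturation were examined in lists written from general knowledge. Of the 4 box C/D core proteins tested, FBL, NOP56, NOP58 and NHP2L1 (the symbol used here for SNU13), and of the 4 box H/ACA core proteins, DKC1, NHP2, NOP10 and GAR1, none was called. Their log2 fold changes lay between -0.22 (NOP58) and 0.30 (NHP2L1) and between -0.15 (DKC1) and 0.40 (NHP2). Of 12 assembly factors 1 was called, C12orf45, which links NOP58 to the assembly chaperones. C12orf45 had 213 and 276 reads with vehicle and 510 and 490 with LY500307, without overlap, a log2 fold change of 0.83 ± 0.19 (adjusted p = 0.423, edgeR's quasi-likelihood test). None of 8 Cajal body genes (median 0.01), none of 12 genes of 3′ end processing and decay (median -0.07) and none of the 34 host genes in the list (median -0.02) were called.

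Around the minimum of 40 reads, the members just inside were SNORD16 with 40 reads (4 and 13 with vehicle, 14 and 9 with LY500307), and SNORA7B (15 and 11 with vehicle, 15 and 0 with LY500307) and SNORD23 (18 and 10 with vehicle, 6 and 7 with LY500307) with 41 each. Just outside were SNORA45 with 39 reads (5 and 13 with vehicle, 2 and 19 with LY500307), and SNORA55 and SNORD88B with 38 each. Of the 46 members with 100 or more reads, 5 were called and 33 were negative, of which 26 of 31 were box C/D and 5 of 13 box H/ACA genes. The share of all genes called at that minimum is not given here, and at the minimum of 40 reads it was 4.56%.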

How the data were processed

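RNA-seq of SKOV3-ALDH+ OCSCs treated with vehicle or LY500307 was analysed from the counts per gene symbol that the authors deposited. Per the labels and methods, 50 nt single-end reads were aligned to hg19 with TopHat2 2.0.8b and raw counts were made with HTSeq, without normalization, and the deposited text says that raw reads were combined. The labels name a total RNA kit and the methods a stranded mRNA kit. Strand and overlap settings of the counting are not given in the sources used here, so reads of a snoRNA, of its unspliced host intron and of antisense genes cannot be told apart. Tallied reads on no gene (17.3% to 20.5%), not uniquely aligned (32.3% to 33.4%) or ambiguous (0.440% to 0.481%) were left out. Reads that aligned to several copies are thus missing from these counts.

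Genes with 40 or more reads over the 4 samples entered edgeR 4.0.16 under R 4.3.3 (TMM scaling, quasi-likelihood test, Benjamini-Hochberg adjustment), and all 111 members were fitted. The SE is the absolute log2 fold change divided by the square root of F. The procedure was tested on simulated data. Alternatives were DESeq2 1.42.0, its size factors, library totals, other filters, a minimum of 100 reads, a replicate block and leaving out each sample. Hosts and places came from GENCODE (GRCh37) where RefSeq symbols placed the member in the same host on the same chromosome, and from RefSeq neighbours (GRCh38.p14, names alone) otherwise. For the latter the strand was not checked. Exact copies of 50 bases were sought with BLAST+ 2.17.0. Named genes were the called members, the 3 most highly expressed of each class, those at the threshold, their hosts and called partner genes; any other gene was picked with its values in view. The members and gene lists were chosen with earlier results of these data known. Replicate numbers came from the sample titles and did not pair the samples. Intervals for zero counts cover counting error only.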

Additional observations from a re-analysis of the deposited data

How the results depend on the processing

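Called members numbered 12 (11 lower). DESeq2 called 5 (4 lower, 4 box C/D, 1 box H/ACA) and gave 20 genes, 0 of them members, an adjusted p below 0.05. Most members received no adjusted p from DESeq2, so for these the 0 was fixed beforehand. Restricting to members with 100 or more reads left 5 calls, 4 box C/D and 1 box H/ACA, without a share over all genes at that minimum. With library totals alone, 12 members were called but 70.2% of all calls were higher, against 59.8%, and 2 partner genes were called against 1. Same-numbered samples did not deviate together (r = -0.08 over all genes, -0.23 among the 7191 genes of higher level). The replicate block called 14 members, 724 genes and 3 partner genes, and gave 3 genes, 0 of them members, an adjusted p below 0.05. A crossed block, added after seeing the data, gave 16 members, 811 genes and 3 partner genes, with 363 genes and 1 member at an adjusted p below 0.05. Leaving out 1 sample gave 8 to 18 called members, 6 to 11 lower, 1 to 6 box H/ACA, 367 to 2015 genes, 1 to 15 partner genes, and 0 to 5094 genes and 0 to 12 members at an adjusted p below 0.05, the upper ends without LY500307 replicate 1.

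The median log2 fold change of box C/D members was -0.45 at the lowest (LY500307 replicate 2 left out) and -0.17 at the highest (LY500307 replicate 1 left out), that of box H/ACA members from -0.40 to 0.20, and that of scaRNAs from -0.71 to -0.39. The scaRNA median was -0.53 under the filterByExpr filter and -0.34 with 100 or more reads, where 2 of 5 remained, and the box H/ACA median was 0.18 with 100 or more reads. Over the log2 fold changes of named genes with all samples in the fit, 271 of the alternative values kept their side of the criteria and 9 called ones lost it, 7 of them under DESeq2, and no called value changed sign. With 2 samples per group and a median of 85 reads per member, the median SE of 0.54 on the log2 scale is the precision of a typical member.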

Other observations

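Below the minimum of 40 reads, 5 snoRNA genes had 0 reads in both vehicle samples and at least 3 in each LY500307 sample. SNORA72 had 9 and 9 reads with LY500307, SNORA75 had 3 and 7, SNORA77 had 8 and 5, SNORD75 had 3 and 10, and SNORD88A had 3 and 4. A count of 0 allows up to 3 reads per sample, these genes were picked for this pattern among 142 with few reads, and no test was made. Neither the count of the reverse pattern nor the share of all genes with this one is given here. No direction can therefore be read from these genes.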
